A study of Mus musculus with 24 samples.

Results

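The regions described here were the open chromatin regions of mouse epidermal stem cells (EpdSCs) at day 0 (D0) and after 1 week (W1) of SOX9 induction. The assay was ATAC-seq, which maps open DNA through the cuts of a transposase. The D0 and W1 peak lists were merged wherever peaks overlapped by at least 1 bp, which gave 64823 regions, against 134385 when all 12 lists of the series were merged. Of these, 7273 regions (11.2%) had a peak in the D0 list only, 8910 (13.7%) in the W1 list only, and 48640 (75.04%) in both. When W1 was merged with the week 2 (W2) list in the same way, 56.9% of 75976 regions were in both.

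Both groups came from male CD1 mice of genotype K14rtTA; TRE-myc-Sox9. In these mice the Krt14 promoter, active in basal skin epithelium, drives the rtTA activator, and rtTA switches on a MYC-tagged Sox9 transgene when doxycycline (DOX) is given. D0 cells were taken at postnatal day 21 before DOX, and W1 cells at postnatal day 28, 1 week after DOX began, so that age and time on DOX cannot be told apart. An uninduced list from mice of postnatal day 28, or one from mice with the activator alone, was not used here. EpdSCs were sorted from back skin as CD49f-high, Ly6A-high, CD34-negative cells after removal of cells with CD31, CD45, CD117 or CD140a. Each group had 2 biological replicates of pooled mice, and the authors merged the replicates before calling peaks. Each group was therefore 1 list, no spread between replicates could be had, and the values below describe these lists without a test. Intervals in brackets are 95% Wilson intervals and cover counting error only.

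SOX9 is a transcription factor of the high-mobility-group family that marks hair follicle stem cells and is little expressed by stem cells of the interfollicular epidermis. Factors of this family can bind their short DNA motif in closed chromatin. Epidermal fate in turn rests on factors such as p63, GATA3, KLF and AP1, a dimer of FOS and JUN proteins that binds many open enhancers of keratinocytes. Loss of a peak from a list means that the signal passed below the peak-calling and score limits, which need not mean that the site was closed.

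The D0 list held 57334 peaks and the W1 list 57767, with median widths of 546 and 577 bp. The score deposited for each peak was scaled within a list, and peaks scoring under 3 had been removed. At that limit the lowest −log10 q-value was 14.5 at D0 and 9.37 at W1, so a score of 3 did not stand for equal evidence in the lists. The files did not state the sequencing depth. Promoters (a peak within 1 kb of a start site) of keratinocyte markers were accessible for 10 of 10 genes at D0 and 9 of 10 at W1, with scores of 4.76 to 30.8 and 10.5 to 34.6. Ly6a, the gene of the sorted surface marker, was the exception, with a promoter score of 9.66 at D0 and no peak at W1. Immune markers had a promoter peak for 1 of 10 genes at D0 and 0 of 10 at W1, and Ptprc, which encodes CD45, had none. Fibroblast markers had one for 3 of 10 genes in each list, endothelial markers for 4 and 3 of 10, and melanocyte markers for 3 of 10 in each. Pecam1, Kit, Sox10 and Tyr had none, whereas Pdgfra, which encodes the depleted marker CD140a, scored 9.23 at D0 and 10.4 at W1. The melanocyte list also held Mitf, with promoter scores of 89.7 at D0 and 61.3 at W1, above those of all keratinocyte markers, Dct, with 38.0 and 28.6, and Pmel, with 9.58 and 22.1. The part of other cell types in the lists was not tested. Follicle outer root sheath and bulge markers had promoter peaks for 7 of 10 genes in each list, Sox9 among them. The scores of these 7 genes summed to 92.5 at D0 and 106 at W1, with medians of 13.8 and 12.3, and those of the keratinocyte markers summed to 178 and 197.

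The labels could not be verified from the Sox9 gene itself. Sox9 lies at chr11:112782224-112787760 (GRCm38, forward strand), and the transgene carries its coding sequence, in the mice of both groups. Exon 1 had a peak in each list, with scores of 13.8 at D0 and 17.3 at W1, and exon 2 had none in either. Exon 3 had a peak of score 13.5 at D0 (chr11:112784789-112785371) and none in the list labelled W1. The same exon 3 region scored 15.1, 9.22 and 8.84 in the lists of week 2, week 6 (W6) and week 12 (W12). The exon 1 peaks began upstream of the gene start, at chr11:112782006 for D0 and 112781533 for W1, outside the sequence that the transgene carries. Shared regions within 1 kb of any start site also scored higher at W1, with a median log2 ratio of 0.29 (−0.11 by fold enrichment). The exon 1 scores were thus no measure of the transgene alone. Exon 3 had no peak at W1, and every direction below rests on the labels of the lists.

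Sequences are shown for high-scoring intronic or intergenic regions of the list-specific classes that held a match, as examples of each kind and not as a measure of how often it occurred. Consensus matches were sought on both strands. An AP1 match was TGACTCA or its reverse complement TGAGTCA, the same site read on the other strand. A SOX match was ACAATAG, or the variant with the other sixth base, ACAATGG. The letters sought for factors of the zinc finger family named after GATA were AGATAA. Those sought for the core-binding factors of the RUNX family were TGTGGT. As a comparison, the T-box (TBX) factors were represented by GGTGTGA. The insulator protein CTCF was sought by its core consensus. Each sequence is the central 200 bp of its region on the forward strand of GRCm38, with the match in capitals. The first pair are the highest-scoring D0-only regions with an AP1 match outside exons, near Jun and Mrgprb3.
Jun, D0 only, chr4:95105440-95105639: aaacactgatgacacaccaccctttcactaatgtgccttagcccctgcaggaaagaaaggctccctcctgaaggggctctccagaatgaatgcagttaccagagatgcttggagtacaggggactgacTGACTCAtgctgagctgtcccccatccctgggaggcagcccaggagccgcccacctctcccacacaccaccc
Mrgprb3, D0 only, chr7:48658083-48658282: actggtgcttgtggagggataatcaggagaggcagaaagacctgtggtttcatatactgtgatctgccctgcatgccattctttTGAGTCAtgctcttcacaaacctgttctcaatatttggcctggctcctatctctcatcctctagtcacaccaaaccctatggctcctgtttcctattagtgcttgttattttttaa
The next pair are the highest-scoring D0-only regions with a GATA match, in introns at Acadm and Map1lc3a.
Acadm, D0 only, chr3:153940170-153940369: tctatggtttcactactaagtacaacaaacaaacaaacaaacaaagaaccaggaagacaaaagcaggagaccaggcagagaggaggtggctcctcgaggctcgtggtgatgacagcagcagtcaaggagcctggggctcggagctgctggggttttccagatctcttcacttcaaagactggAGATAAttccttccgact
Map1lc3a, D0 only, chr2:155295433-155295632: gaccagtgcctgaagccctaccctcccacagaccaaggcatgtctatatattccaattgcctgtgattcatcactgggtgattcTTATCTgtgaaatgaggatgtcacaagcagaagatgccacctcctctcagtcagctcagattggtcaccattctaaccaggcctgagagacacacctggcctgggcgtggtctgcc
For W1-only regions the highest-scoring AP1 matches lay near Mrpl14 and Slc5a9.
Mrpl14, W1 only, chr17:45698912-45699111: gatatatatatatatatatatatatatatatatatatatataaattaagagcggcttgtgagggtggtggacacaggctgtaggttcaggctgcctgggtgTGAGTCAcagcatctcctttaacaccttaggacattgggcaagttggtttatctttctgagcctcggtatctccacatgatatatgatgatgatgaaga
Slc5a9, W1 only, chr4:111829494-111829693: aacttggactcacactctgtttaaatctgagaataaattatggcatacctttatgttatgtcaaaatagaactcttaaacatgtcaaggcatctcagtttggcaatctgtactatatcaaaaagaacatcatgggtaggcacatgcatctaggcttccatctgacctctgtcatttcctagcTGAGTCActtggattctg
The highest-scoring W1-only regions with a SOX match lay near Tox3 and H2-D1.
Tox3, W1 only, chr8:90058757-90058956: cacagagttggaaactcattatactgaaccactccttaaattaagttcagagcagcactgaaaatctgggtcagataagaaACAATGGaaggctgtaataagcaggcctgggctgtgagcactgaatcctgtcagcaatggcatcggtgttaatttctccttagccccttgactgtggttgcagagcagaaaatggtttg
H2-D1, W1 only, chr17:35258171-35258370: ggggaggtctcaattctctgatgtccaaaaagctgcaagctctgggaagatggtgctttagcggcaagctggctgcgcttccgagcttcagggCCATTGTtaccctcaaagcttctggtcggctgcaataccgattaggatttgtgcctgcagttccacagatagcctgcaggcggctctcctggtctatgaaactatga
A further pair of D0-only regions with a SOX match and a peak at W2 was chosen after the motif counts were seen.
Slc10a2, D0 only, chr8:6609020-6609219: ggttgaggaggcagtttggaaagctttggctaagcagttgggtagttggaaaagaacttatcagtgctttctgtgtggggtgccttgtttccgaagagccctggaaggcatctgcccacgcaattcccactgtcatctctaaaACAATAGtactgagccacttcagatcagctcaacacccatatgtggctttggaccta
Mycn, D0 only, chr12:12715636-12715835: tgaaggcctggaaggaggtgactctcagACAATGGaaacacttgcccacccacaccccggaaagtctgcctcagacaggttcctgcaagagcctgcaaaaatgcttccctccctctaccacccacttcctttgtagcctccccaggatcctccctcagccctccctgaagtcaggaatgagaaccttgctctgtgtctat
The last pair, also chosen after the counts were seen, are the highest-scoring W1-only regions with a CTCF match.
Wdr11, W1 only, chr7:129918534-129918733: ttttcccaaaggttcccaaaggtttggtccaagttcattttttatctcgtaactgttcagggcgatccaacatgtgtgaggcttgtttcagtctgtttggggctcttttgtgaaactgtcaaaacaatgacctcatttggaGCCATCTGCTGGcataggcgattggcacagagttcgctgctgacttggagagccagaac
Ctu2, W1 only, chr8:122500992-122501191: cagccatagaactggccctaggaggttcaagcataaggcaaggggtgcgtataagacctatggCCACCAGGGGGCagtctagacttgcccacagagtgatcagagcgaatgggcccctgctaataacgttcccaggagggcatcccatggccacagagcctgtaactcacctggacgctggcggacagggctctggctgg

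The first question was how strong the regions of each class were. List-specific regions were mostly weak peaks. The median score was 4.13 for D0-only regions and 4.14 for W1-only regions, just above the limit of 3, while shared regions had median scores of 12.1 at D0 and 13.0 at W1. A score of at least 5 was reached by 32.6% of D0-only and 30.9% of W1-only regions. They were also narrow, with median widths of 384 and 369 bp, against 672 bp for shared regions. The nearest peak of the other list lay a median of 5600 bp from a D0-only region and 5253 bp from a W1-only region. Only 194 D0-only and 330 W1-only regions had one within 200 bp.

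**Figure D1:**
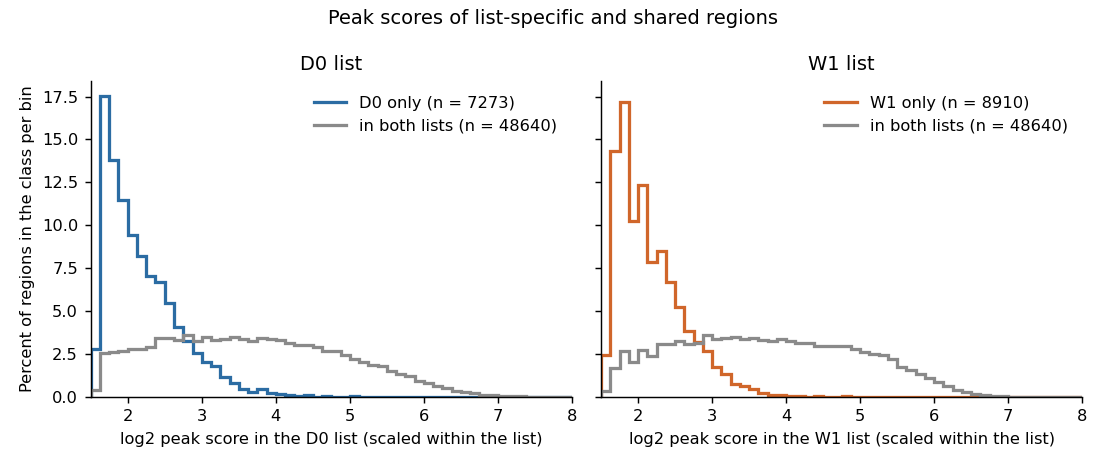
Distribution of log2 peak scores (scaled within the list) in the D0 list (left) and the W1 list (right), as the percent of regions of a class in each bin, for list-specific regions and regions in both lists. List-specific regions, with median scores of 4.13 and 4.14, sit at the low end of both lists.

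The number of W1-only over D0-only regions depended on the limit applied. As deposited, W1-only regions outnumbered D0-only regions, a log2 ratio of 0.29. With the −log10 q-value held to the same minimum of 14.5 in both lists, D0-only regions numbered 11870 and W1-only regions 3867, and the ratio turned to −1.62. The direction of the net change between these lists was therefore not fixed by the data.

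Some list-specific peaks were strong. The highest-scoring D0-only region lay 53.3 kb upstream of Jun, which encodes an AP1 subunit (chr4:95105257-95105821, intergenic). It scored 32.6 at D0, had no peak at W1, and scored 64.3 at W2, 55.1 at W6 and 69.8 at W12. It held the AP1 match printed first above. Map1lc3a, which encodes an autophagy protein, had an intronic D0-only region of score 24.1 (chr2:155295267-155295797), which scored 22.7, 19.8 and 14.3 in the 3 later lists. The region near Cdc5l, a splicing factor gene (chr17:45215537-45216089), scored 26.5 at D0 and 10.6, 26.5 and 21.9 later. The region upstream of Lrrc20 (chr10:61464956-61465446) scored 22.6 at D0 and 16.2, 19.8 and 27.3 later. These 4 regions were absent at W1 alone among the in vivo lists.

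The other 4 of the 8 highest-scoring D0-only regions had no peak in any later in vivo list. They lay near Acadm, a fatty acid oxidation enzyme gene (score 32.1), Plekhb2 (31.8), Mrgprb3 (28.4) and Gm13283 (25.4). Over the 100 highest-scoring D0-only regions, 67 had a peak in all 3 later lists and 9 in none.

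Of the 8 highest-scoring W1-only regions, 2 had a peak in all 3 later lists and 3 in none. The highest lay 329 kb from Gm5096 on chromosome 18 (score 28.7), with no peak at D0, W2, W6 or W12. The region 6.96 kb downstream of the start of Pla2g2d, a secreted phospholipase gene (chr4:138784331-138785369), scored 28.3 at W1 and 17.3, 4.36 and 12.7 later. The region near Il20ra, which encodes a subunit of the receptors for interleukin 20 family cytokines (chr10:19765368-19766180), scored 23.0 at W1 and had no peak later. The region at Mrpl14 (chr17:45698605-45699417) scored 21.6 at W1 and 3.69 at W6 only. Fam92b (21.2), Btbd16 (20.4), Baiap2 (18.9) and Ugp2 (18.8) completed the 8 highest. The Fam92b region scored 7.64, 8.51 and 5.33 later, and the Btbd16 region had no peak in those 3 lists. The Baiap2 region scored 6.88 at W6 and 3.95 at W12, and the Ugp2 region 7.41 at W2 and 6.49 at W12. Of the 100 highest-scoring W1-only regions, 24 had a peak in all 3 later lists and 43 in none.

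The second question was where the regions lay. Within 1 kb of the start site of a protein-coding gene fell 7.87% of D0-only regions (interval 7.28 to 8.51%) and 8.33% of W1-only regions (7.78 to 8.92%), against 25.4% of shared regions (24.97 to 25.7%). The intervals of both list-specific classes overlapped. With peaks of at least 5 in both lists they did not, at 8.28% (7.58 to 9.03%) and 11.4% (10.6 to 12.1%). Within 5 kb the order turned, at 20.3% of D0-only (19.4 to 21.2%) and 18.9% of W1-only regions (18.1 to 19.7%), so that no order of these classes held under all alternatives. The median distance to a start site was 26001 bp for D0-only, 22259 bp for W1-only and 15128 bp for shared regions. Introns held 46.6% of D0-only and 47.7% of W1-only regions, and coding exons 2.41 and 2.49%. The share of list-specific regions varied between chromosomes, with D0-only regions at 8.42% of those on chromosome 11 and 14.3% on X. W1-only regions made up 17.7% on chromosome 11 and 9.59% on X.

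The third question was how scores of shared regions compared. The median log2 ratio of W1 to D0 score was 0.07, with quartiles of −0.34 and 0.51. The score was at least 2-fold higher at W1 in 3745 regions (7.70%) and at least 2-fold lower in 2477 (5.09%). Promoters and distal regions differed in this respect. Regions within 1 kb of a start site had a median log2 ratio of 0.29, with 1450 at least 2-fold higher and 250 at least 2-fold lower. Regions farther away had a median of 0.00, with 2295 higher and 2225 lower. The median depended on the measure used, since the MACS2 fold enrichment of the same peaks gave a median log2 ratio of −0.20, with −0.11 within 1 kb of a start site and −0.23 farther away.

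**Figure D2:**
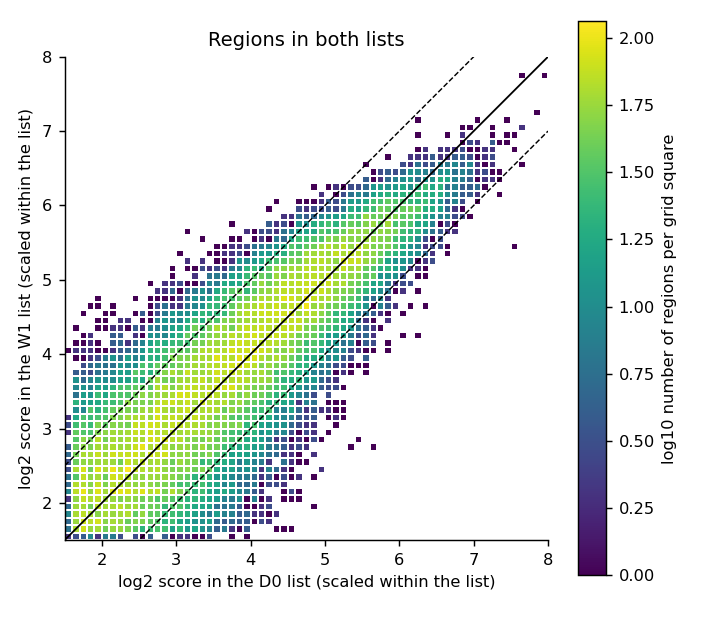
Log2 score in the W1 list against log2 score in the D0 list (scaled within the list) for regions in both lists, with colour for the log10 number of regions in each grid square. The solid line marks equal scores and the dashed lines a 2-fold difference. Most of the 48636 regions in range lie between the dashed lines, with 3745 at least 2-fold higher at W1.

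Among shared regions with a score of at least 10 in the higher list, the highest ratio was at the promoter of Marf1 (chr16:14158940-14160036), a regulator of meiosis, which scored 3.86 at D0 and 26.8 at W1, a log2 ratio of 2.80. The later scores were 6.14, 17.98 and 4.44. The promoter region of Uba3, which encodes part of the NEDD8-activating enzyme (chr6:97205416-97206066), scored 8.83 at D0 and 50.1 at W1, then 19.4, 33.3 and 14.8. The regions near 1810049J17Rik (3.30 at D0, 22.6 at W1) and Actbl2 (3.62, 24.4) had no peak in any later list. Glo1, a methylglyoxal-detoxifying enzyme gene, had an intronic region with scores of 3.94 and 25.8, and Uba7, the activating enzyme of ISG15, one of 3.19 and 20.3. The high W1 scores of these 6 regions were what chose them.

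At the other end, the region 43.3 kb upstream of Fbxo33, a ubiquitin ligase subunit gene (chr12:59262828-59263189), scored 51.3 at D0 and 6.59 at W1, a log2 ratio of −2.96, and held a SOX match. The intronic region at Adgrl2, an adhesion receptor gene (chr3:148899797-148900319), held an AP1 match and scored 22.9 at D0, 3.19 at W1, and 40.9, 59.2 and 22.6 later. The region near Gm9767 (chr10:25918073-25918612), with AP1 and RUNX matches, scored 20.01 at D0, 3.19 at W1 and 65.1, 52.2 and 45.8 later. The region near Lsm11, with an AP1 match, scored 27.99 and 3.86. The promoter of Add3, which encodes the cytoskeletal protein adducin 3, scored 22.1 and 3.23, and that of Lancl3 on X 25.3 and 4.09. The low W1 scores of these 6 regions were what chose them.

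Of all shared regions at least 2-fold lower at W1, 88.8% had a peak at W2, where the median score was 15.8, against medians of 14.5 at D0 and 5.34 at W1. At W12 93.4% had one, with a median of 16.5. The W12 values were 85.9% and 13.0 over all shared regions, and 74.7% and 8.37 for those at least 2-fold higher at W1. Regions at least 2-fold higher at W1 had a peak at W2 in 76.2%, with medians of 6.09 at D0, 15.3 at W1 and 9.32 at W2. Over all shared regions 83.9% had a peak at W2, with a median score of 14.2. Both 2-fold sets were chosen by the ratio of W1 to D0 score, so the difference of their D0 and W1 medians follows from that choice. A return of the scores at W2 can follow from it as well.

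The fourth question was which motifs the classes held. AP1 matches differed most in percentage points. They occurred in the central 200 bp of 27.5% of D0-only regions (26.5 to 28.6%), 15.8% of shared regions (15.5 to 16.1%) and 8.69% of W1-only regions (8.12 to 9.29%), with 16.1% over all regions. The order held at every score level. Among regions scoring 3 to 4, 24.9% of D0-only and 9.28% of W1-only regions had a match, and among those scoring over 7, 33.2 and 7.65%. Restricted to regions over 1 kb from a start site, the shares were 28.8 and 9.19%.

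CTCF matches went the other way. They were held by 6.88% of W1-only regions (6.38 to 7.43%), 2.04% of D0-only regions (1.74 to 2.39%) and 2.05% of shared regions (1.92 to 2.18%). In the W1-only class they were fewest among the strongest peaks, at 3.48% of those scoring over 7. The examples near Wdr11 and in an intron 24.9 kb from a start site of Ctu2 (printed above) scored 10.5 and 9.77 at W1 and 10.9 and 5.65 at W2.

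SOX matches were more frequent in the D0-only class, at 5.19% (4.70 to 5.72%), than in the W1-only class, at 3.10% (2.76 to 3.48%), whose interval overlapped that of shared regions, at 2.96% (2.81 to 3.11%). GATA matches were held by 14.7% of W1-only (13.98 to 15.4%), 12.2% of D0-only (11.5 to 13.0%) and 10.9% of shared regions. Among regions over 1 kb from a start site the shares were 15.5, 12.8 and 13.6%. RUNX matches were held by 15.1% of D0-only, 13.6% of W1-only and 11.96% of shared regions. TBX matches, sought for comparison, were held by 4.93, 3.57 and 3.73%, a difference between the list-specific classes of 1.36 percentage points. The differences for SOX and RUNX were 2.09 and 1.45 points. Over 1 kb from a start site, SOX matches were held by 5.47% of D0-only, 3.12% of W1-only and 3.41% of shared regions. In the same order the distal shares were 15.7, 14.3 and 13.7% for RUNX, and 5.15, 3.61 and 4.37% for TBX.

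AP1, SOX, RUNX and TBX matches in shared regions followed the order of the list-specific classes. With the score ratio divided into 6 bins, AP1 matches were held by 33.8% of regions at least 2-fold lower at W1 and by 6.86% of those at least 2-fold higher, with each bin below the one before it. SOX matches went from 5.41 to 1.98%, RUNX matches from 14.7 to 10.4%, TBX matches from 5.01 to 3.12%, and CTCF matches from 0.32% in the lowest bin to 2.48% in the bin just above equal scores. GATA matches did not follow that order, with 12.4% in the lowest bin and 9.75% in the highest, although they were more frequent in W1-only than in D0-only regions. Base composition moved along with these shares. The mean GC content of the central 200 bp went from 50.3 to 56.7% across the bins, the mean number of CpG sites from 4.01 to 10.1, and the share within 1 kb of a start site from 10.1 to 38.7%. Their part in the motif shares was not tested, other than by leaving out promoters. Among distal shared regions the median log2 ratio was −0.23 with an AP1 match and 0.06 without (−0.32 and −0.21 by fold enrichment), and the share at least 2-fold lower at W1 was 11.1 and 4.88%.

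**Figure D3:**
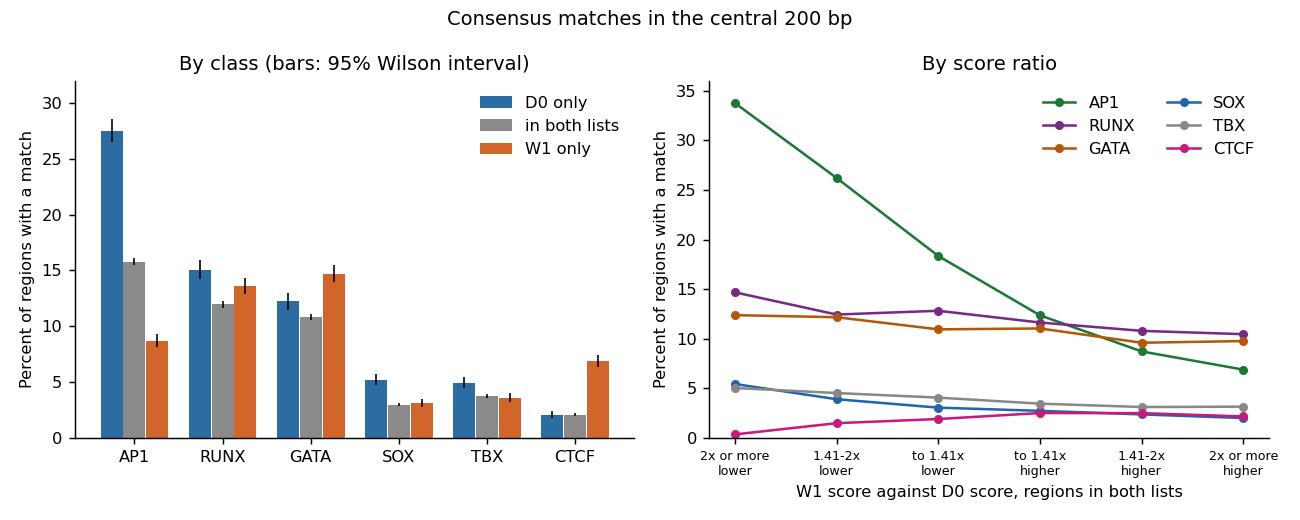
Left, percent of regions with a consensus match in the central 200 bp by class (bars, with 95% Wilson intervals). Right, the same percent in regions of both lists, binned by the ratio of W1 to D0 score. AP1 matches run from 27.5% of D0-only to 8.69% of W1-only regions on the left and from 33.8 to 6.86% across the bins on the right.

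The fifth question was what became of these regions in the lists that the classes did not use. In vivo lists followed at weeks 2, 6 and 12, the last from grafted skin, and cultured EpdSCs were listed without DOX and with wild-type SOX9. A W2 peak was listed for 56.3% of D0-only regions, a W6 peak for 65.1% and a W12 peak for 69.2%. W1-only regions had one in 26.8, 35.4 and 29.9%. A peak in all 3 later lists was found for 45.7% of D0-only regions (44.5 to 46.8%) and 14.3% of W1-only regions (13.6 to 15.1%). A peak in none was found for 19.6% (18.7 to 20.5%) and 51.6% (50.6 to 52.7%). Where D0-only regions had a peak at W2, its median score was 7.90, and for W1-only regions it was 5.004. The order held at every score level, and among regions scoring over 7 the share with a peak at W12 was 87.5% for D0-only and 32.1% for W1-only. In culture without DOX, peaks were found for 36.04% of D0-only and 24.9% of W1-only regions, and with SOX9 for 28.1 and 24.4%.

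The whole lists gave the same order. Merged with W2, 61.8% of regions were shared for D0 and 56.9% for W1. With W6 the shares were 53.4 and 49.6%, with W12 59.1 and 53.3%, and with the culture without DOX 42.2 and 40.7%. In each case the D0 list had more in common with the other list than W1 had. The lowest −log10 q-values kept in the 3 later lists were 4.21, 5.74 and 10.1, so that these lists also differed in the evidence behind a score of 3. The part of this in the shares was not tested.

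**Figure D4:**
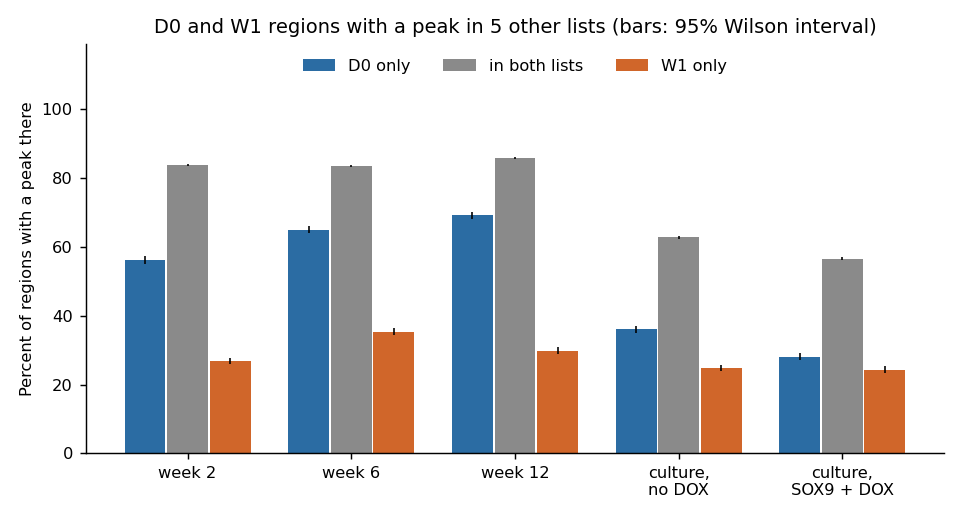
Percent of D0-only, shared and W1-only regions with a peak in the lists of weeks 2, 6 and 12 and of cultured EpdSCs without DOX and with SOX9 plus DOX (bars, with 95% Wilson intervals). D0-only regions exceed W1-only regions in all 5 lists, most at week 12, with 69.2 against 29.9%.

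SOX matches followed the W2 state. Among D0-only regions with a peak at W2, 7.23% (6.48 to 8.07%) held a SOX match, against 2.55% (2.06 to 3.16%) of those without one. Among W1-only regions the shares were 4.19 and 2.70%, and among shared regions 3.13 and 2.09%. GATA matches ran the opposite way, at 10.2% of D0-only regions with a W2 peak and 14.8% of those without, and at 9.97 and 16.4% in the W1-only class. AP1 matches in D0-only regions were 28.4% with and 26.4% without a W2 peak. The SOX examples printed above lay in D0-only regions far from genes. The first, 1504 kb from Slc10a2 (chr8:6608850-6609389), scored 19.8 at D0 and 78.0, 50.9 and 40.9 at weeks 2, 6 and 12. The second, 225 kb from Mycn, a MYC family gene (chr12:12715454-12716017), scored 14.8 at D0 and 35.7, 26.5 and 10.8 later. Both were chosen for having a peak at W2. Of the W1-only regions with a SOX match printed above, the one near Tox3 scored 17.7 at W1 and had no peak in those 3 lists, and the one near H2-D1 scored 15.3 at W1 and 5.98, 4.72 and 10.4 later.

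By nearest start site the regions fell to 15476 protein-coding genes. At least 1 D0-only region was found at 4440 genes (28.7%) and at least 1 W1-only region at 5504 (35.6%), with 2124 genes having both. The genes with the most D0-only regions were Auts2 (14), Adgrl2 (12), Myc (11), and Tcf4, Trabd2b and Zfp608 (10 each). Those with the most W1-only regions were Gata3 (23), Foxp1 (14), Sox6 (13), and Btbd3 and Klf5 (12 each). These counts were not scaled to the length of the gene or of the intergenic space around it. Single genes below are to be read against all regions, of which 11.2% were D0-only and 13.7% W1-only. A W2 peak was listed for 56.3% of all D0-only and 26.8% of all W1-only regions. A peak in all 3 later lists was found for 45.7 and 14.3%.

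Gata3, a transcription factor of epidermal and inner root sheath differentiation (chr2:9857078-9890034, reverse strand), had 23 W1-only regions, 8 D0-only regions and 71 in both. The list-specific regions lay 73.2 to 1150 kb from its start sites, all on the downstream side, and 0 were within 20 kb of the gene. The W1-only regions scored 3.19 to 13.6. Of the 23, 5 held a GATA match and 5 an AP1 match, against 14.7 and 8.69% of all W1-only regions. The strongest lay 1001 kb away (chr2:8876882-8877468), with no peak at W2 or W6 and a score of 3.59 at W12. Of the 23, 3 had a peak at W2, against 26.8% of all W1-only regions. Of the 8 D0-only regions 5 had one, against 56.3% of all D0-only regions. With the q-value limit made equal the counts were 12 D0-only and 9 W1-only regions.

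Sox9 had 7 D0-only, 5 W1-only and 41 shared regions, with a median log2 ratio of −0.28 over the shared ones, against 0.07 over all shared regions. Of the 41, 4 were at least 2-fold lower at W1 and 1 at least 2-fold higher, against 5.09 and 7.70% of all shared regions. All 7 D0-only regions had a peak at W2, W6 and W12, whereas 1 of the 5 W1-only regions had one at W2. A D0-only region 14.5 kb upstream (chr11:112767355-112768134) scored 3.67 at D0 and 13.3, 16.0 and 7.84 later. One 42.1 kb from the start (chr11:112824209-112824521) scored 3.46 at D0 and 10.7, 27.6 and 11.6 later. Apart from the region in exon 3, the D0-only regions at Sox9 scored 3.30 to 3.67 at D0, close to the limit. With list-specific peaks of at least 5, Sox9 had 1 region of each class.

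Runx1, a hair follicle and wound-associated transcription factor (chr16:92601466-92826149), had 4 D0-only regions, 0 W1-only regions and 24 in both. The D0-only regions scored 3.23 to 7.67, and all 4 had a peak at W2, W6 and W12. The region 169 kb upstream (chr16:92995238-92995657) scored 7.25 at D0 and 29.0, 5.16 and 6.43 later. The promoter region scored 43.1 at D0 and 52.2 at W1.

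Myc, a regulator of cell growth and division, had 11 D0-only, 3 W1-only and 49 shared regions, with a median log2 ratio of −0.44 over shared regions. Of these, 9 were at least 2-fold lower at W1 and 3 at least 2-fold higher. Over all shared regions the median was 0.07, with 5.09% at least 2-fold lower and 7.70% higher. A peak at W2 was listed for 7 of the 11 D0-only and 0 of the 3 W1-only regions, against 56.3 and 26.8% of all regions of these classes. Within 20 kb of the gene there was 1 region of each list-specific class. The strongest D0-only region, 371 kb downstream, scored 17.1 and had no later peak.

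Trp63, which encodes p63, a factor that stratified epithelia require, had 2 D0-only and 5 W1-only regions, and 33 in both. The W1-only regions scored 3.28 to 9.03, and 0 of 5 had a peak at W2. With the q-value limit made equal, the counts turned to 4 D0-only and 3 W1-only regions. Of the keratin genes of the basal layer, Krt5 had 1 D0-only and Krt14 2 D0-only regions, with 0 W1-only regions at either. With peaks of at least 5 in both lists Krt5 turned to 0 D0-only and 1 W1-only region, and with list-specific peaks of at least 5 both genes had 0 of either class. The D0-only region 2.44 kb upstream of Krt14 (chr11:100209878-100210091) scored 3.46 at D0 and 20.1, 13.7 and 12.6 later. The promoter scores were 21.7 at D0 and 24.1 at W1 for Krt5, and 23.7 and 18.2 for Krt14.

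**Figure D5:**
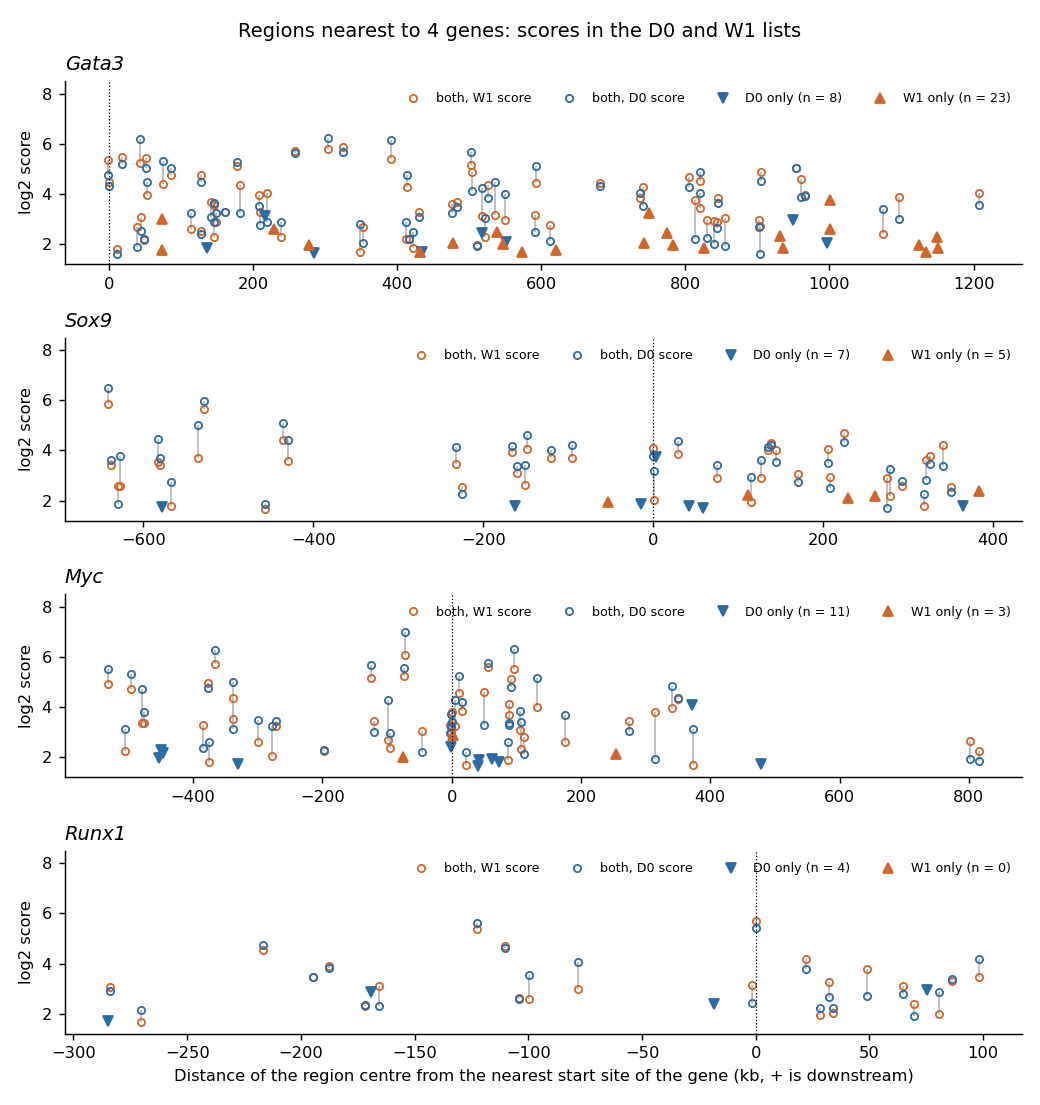
Log2 peak score (scaled within the list) against distance from the start site in kb for all regions nearest to Gata3, Sox9, Myc and Runx1. Filled triangles mark D0-only (down) and W1-only (up) regions, and open circles joined by lines the D0 and W1 scores of regions in both lists. The 23 W1-only regions of Gata3 lie 73.2 to 1150 kb downstream, and Runx1 has 4 D0-only regions and 0 W1-only regions.

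Auts2, a long neuronal gene also linked to Polycomb complexes, had 14 D0-only and 3 W1-only of 59 regions. Peaks were listed for 6 of the 14 at W2, 9 at W6 and 12 at W12, against 56.3, 65.1 and 69.2% of all D0-only regions. Adgrl2 had 12 and 7 of 59. Of its 40 shared regions, 10 were at least 2-fold lower at W1 and 1 at least 2-fold higher, against 5.09 and 7.70% of all shared regions. Tcf4, which encodes a basic helix-loop-helix E protein, had 10 and 1 of 19, with 9 of the 10 present at W2. Trabd2b, which encodes a membrane protease that inhibits WNT ligands, had 10 and 1 of 25, with 7 of the 10 present at W2. In the other direction, Foxp1, a forkhead transcription factor of hair follicle stem cells, had 2 D0-only and 14 W1-only of 44 regions. Of the 14, 3 were present at W2, against 26.8% of all W1-only regions. Sox6 had 2 and 13 of 41, with 3 of the 13 at W2. Btbd3 had 2 and 12 of 51, with 2 of the 12 at W2. Klf5, an epithelial KLF factor, had 2 and 12 of 59, with 1 of the 12 at W2. With the q-value limit made equal, D0-only and W1-only regions numbered 7 each for Sox6, 5 and 7 for Btbd3, and 5 and 3 for Klf5. With peaks of at least 5 in both lists they numbered 6 each for Auts2.

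Gene lists were read against the shares over all regions, 11.2% D0-only and 13.7% W1-only. Which of the D0-only and W1-only shares was higher did not hold for 18 of the 19 lists under at least 1 of 6 alternatives, and the TGF-beta and BMP list was the exception. The shares are therefore given as a description of the lists as deposited. The 24 epidermal identity transcription factors had 570 regions, of which 60 (10.5%) were D0-only and 75 (13.2%) W1-only. The hair follicle stem cell list had 336 regions, with 11.9% D0-only and 12.5% W1-only. Both lists were close to the shares over all regions. The strongest D0-only region of the epidermal list was near Tfap2c, an AP2 factor of the epidermis (score 9.79). The strongest W1-only region of that list was near Gata3 (13.6). In the follicle list the strongest D0-only region was the one in exon 3 of Sox9 (13.5). The strongest W1-only region there was in an intron upstream of Nfib, a stem cell maintenance factor (8.60). The Nfib region had no peak at W2, W6 or W12.

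The families of DNA-binding factors gave the following counts. The 10 AP1 subunits had 100 regions, of which 7 were D0-only and 8 W1-only. The median log2 ratio was 0.35 over their 85 shared regions, against 0.07 over all shared regions and 0.29 over those within 1 kb of a start site. By gene the median was 0.29 for Fos, 0.52 for Fosb, 0.55 for Fosl1, 0.59 for Fosl2 and 0.72 for Junb. It was 0.61 for Jund, 0.34 for Batf3, 0.31 for Atf3, −0.16 for Jun and −1.20 for Batf. Junb rested on 3 shared regions, Fosl1 and Jund on 2 each, and Batf on 1. Fos had a W1-only region 17.4 kb upstream (score 10.3) with no later peak. The SOX family had 185 regions, 10.8% D0-only and 14.6% W1-only, with a median log2 ratio of −0.15. The GATA and RUNX list had 175 regions, 13.1% and 17.7%, with Gata3 holding 23 of its 31 W1-only regions.

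Signalling pathways spread around the shares over all regions. The Notch list, on receptors and targets that promote keratinocyte differentiation, had 13.9% D0-only and 7.46% W1-only of 201 regions. With peaks of at least 5 the shares turned to 8.55 and 9.87%, and counted within 20 kb of the gene to 8.97 and 11.7%. Maml3, a coactivator of Notch, held both its strongest D0-only region (16.7, with later scores of 12.5, 7.18 and 22.2) and its strongest W1-only region (7.75, at the promoter). Hedgehog genes, which act in follicle growth and basal cell carcinoma, had 12.3 and 11.6% of 146 regions. Among them the transcription factor Gli3 had 9 D0-only and 0 W1-only regions, and its relative Gli2 had 0 and 8. The receptor Ptch1 had a W1-only region 0.721 kb upstream of a start site (score 8.47) with no later peak. EGF receptor family and ligand genes had 13.95 and 11.6% of 172 regions, with an intronic D0-only region of the ligand gene Nrg1 at 10.8 and later scores of 17.5, 22.9 and 30.7. WNT genes had 12.8 and 15.3% of 320 regions, and TGF-beta and BMP genes 13.2 and 12.04% of 357. In the latter list the receptor gene Tgfbr2 had an intronic D0-only region of score 14.9, and the ligand gene Bmp4 a W1-only region of 8.62.

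Lists of structural genes differed among themselves. Genes of the epidermal differentiation complex and cornification had 6.33% D0-only and 16.5% W1-only of 79 regions, with the strongest W1-only region near Hrnr, which encodes a cornified envelope protein (7.56, no later peak). Desmosome and tight junction genes had 14 D0-only and 27 W1-only (15.4%) of 175 regions, and integrin and basement membrane genes 9.96 and 14.3% of 231. Keratins had 16.2 and 11.8% of 68 regions, which turned to 11.5 and 23.1% with peaks of at least 5. Krt79, a keratin of the follicle canal, had a D0-only region 1.80 kb upstream (8.01, with later scores of 29.7, 8.49 and 11.2). EMT factors and cadherins had 9 D0-only and 7 W1-only of 70 regions.

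The remaining lists were stress, inflammation, clock and cofactor genes. Immediate early and stress genes had 12.1% D0-only and 11.03% W1-only of 281 regions. Dusp6, a phosphatase gene of the ERK pathway, had a D0-only region of 13.2 with later scores of 24.1, 9.35 and 16.8, and Gadd45a, a DNA damage response gene, a W1-only region of 12.03 with no later peak. Cytokine and inflammation genes had 11.7 and 11.3% of 231 regions, with Nfkbia, the NF-kB inhibitor gene, at 12.9 for D0-only and Tslp, an epithelial cytokine gene, at 8.93 for W1-only. Circadian clock genes had 6.25 and 11.98% of 192 regions and a median log2 ratio of 0.24, with 22 of 157 shared regions at least 2-fold higher at W1 and 6 at least 2-fold lower, against 7.70% higher, 5.09% lower and a median of 0.07 over all shared regions. Genes of chromatin cofactors of SOX9 had 12.3 and 16.2% of 130 regions, and the SWI/SNF subunit gene Arid2 had a D0-only region of 14.1 with later scores of 34.9, 27.7 and 17.0.

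The strongest list-specific region of each of the 19 lists came to 18 different D0-only and 18 different W1-only regions. A peak in all of W2, W6 and W12 was found for 14 of the 18 D0-only and 2 of the 18 W1-only regions. A peak in none of them was found for 0 and 9. Over all list-specific regions the shares with a peak in all 3 were 45.7 and 14.3%, as given above, and among the 100 highest-scoring of each class the counts were 67 and 24.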

How the data were processed

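Per the labels and the study's methods, the authors aligned reads to GRCm38 (mm10) with the PEPATAC pipeline, merged both replicates of a group, called peaks with MACS2 keeping duplicates, and removed peaks with a normalized score under 3. Their processing notes name Bowtie2 2.2.9, Picard 2.3.0, SAMtools 1.9, MACS2 2.1.1 and deepTools 2.5.4. The deposited columns used were the score, the fold enrichment (a linear ratio) and the −log10 q-value. Depth is not given in the sources used here.

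Here peaks were merged by at least 1 bp (Python 3.11.15, pandas 2.3.3). Regions were given the nearest protein-coding start site of GENCODE M21 and consensus matches in the central 200 bp of 64798 placed regions. Sequences came from RefSeq's GRCm38 genome. The steps were tested on simulated lists. Named regions were the 8 highest-scoring of each list-specific class, the 6 highest and 6 lowest score ratios among 32706 shared regions scoring at least 10, the 5 genes with most regions of each class with their tie, the strongest member of each of 19 gene lists, and Sox9, Gata3, Trp63, Runx1, Krt5 and Krt14. Single members of a list named beyond these (such as Gli2) were chosen after their values were seen. The members and lists were chosen with earlier results of these data known. Alternatives changed the score or q-value limit, list size, overlap, start sites and motif window.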

Additional observations from a re-analysis of the deposited data

How the results depend on the processing

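No paired analysis was possible because each group was 1 list called on merged replicates, and for the same reason no replicate could be left out. Each alternative changed 1 choice, 128 values in all. Of these, 79 stayed within the counting interval, or within 1.5 times for counts of regions. Another 47 moved beyond that limit without a change of sign, and 2 reversed in sign. Promoter shares and counts at listed genes were labelled for 1 class at a time. A turn in the order of the classes was therefore not counted as reversed for them. Differences below are D0-only minus W1-only, in percentage points. The cause was not tested for any of them. With the −log10 q-value held to 1 minimum in both lists, the log2 ratio of W1-only to D0-only regions reversed to −1.62, the shared part was 73.7%, the median log2 score ratio 0.13, and the promoter shares 8.72, 9.54 and 26.96% for D0-only, W1-only and shared regions. The AP1 difference was then 16.8, the CTCF difference −3.58, and those of a peak at W2, W6, W12 and in culture without DOX 27.5, 27.9, 36.6 and 9.29. The listed genes then had 684 D0-only and 205 W1-only regions, against 431 and 472 as deposited, so that their order turned. The median log2 ratio reversed to −0.20 with fold enrichment. With peaks of at least 5 in both lists, the promoter shares were 8.28, 11.4 and 29.5%, the GATA and CTCF differences −1.28 and −3.91, and those of a peak at W2, W6, W12 and in culture without DOX 25.6, 25.6, 34.3 and 9.43. With list-specific peaks of at least 5, the log2 ratio was 0.22, as with lists of equal size, the shared part 90.5%, and the promoter shares 7.05 and 9.83%, with intervals that, as with peaks of at least 5 in both lists, no longer overlapped. The SOX, AP1 and GATA differences were then 2.94, 24.2 and −3.70, those of a peak at W2, W6, W12 and in culture without and with DOX 37.5, 36.8, 49.7, 14.8 and 5.58, and the listed genes had 146 D0-only and 147 W1-only regions. With the start sites of all genes the promoter shares were 11.5, 11.9 and 28.8%, and within 5 kb 20.3, 18.9 and 33.8%, where D0-only exceeded W1-only regions. Over the full region the SOX, AP1, GATA and TBX differences were 3.49, 21.96, −1.38 and 2.14. A later score of at least 5 gave a W6 difference of 32.2. A window around the summit, chosen after the data were seen, moved no motif difference beyond its interval. The 6 motif differences and 5 differences in later peaks kept their direction under every alternative run. The interval of the RUNX difference, however, included 0 with 1 q-value minimum (0.65, −0.63 to 1.89), with list-specific peaks of at least 5 (1.47, −0.45 to 3.40) and around the summit (1.04, −0.05 to 2.13). Of the 15 named genes, 9 had another order of D0-only and W1-only counts under at least 1 alternative. List-specific regions lie near the score limit, so depth, which is unknown, limits how far absence from a list can be read.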
